A study of Schizosaccharomyces pombe with 16 samples.

Results

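The RNAs described here form a group of fission yeast, Schizosaccharomyces pombe, named intergenic non-coding RNAs without an antisense partner. They were taken from the study's table of annotated features as every entry whose identifier begins with SPNCRNA and whose field for an antisense partner is empty, and they number 378 of the 7022 features. The rule also named 12 identifiers to leave out, but each of these has an antisense partner, so the list removed 0 entries. The study sequenced poly(A)+ RNA, keeping the strand of each read, from strains that differ in the carboxy-terminal domain (CTD) of Rpb1, the largest subunit of RNA polymerase II. The mutant strains were rpb1CTD-Y1F, rpb1CTD-S2A, rpb1CTD-T4A, rpb1CTD-S7A, rpb1CTD-Y1F-S7A, rpb1CTD-S2A-S7A and rpb1CTD-T4A-S7A, and the last strain was the wild type (WT), labelled rpb1CTD-WT 1-18. Each strain had 2 biological replicates, giving 16 libraries, and all cultures grew in YES, a rich medium, at 30 °C until the OD600 lay between 0.4 and 0.7. All strains, WT included, carried ade6, ura4-D18 and leu1-32. The S2A strain is h+ and the other strains are h-, so S2A differs from each of them in mating type as well as in the CTD, and how many clones stand behind a strain is not given in the labels.

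The CTD is a tail of repeated peptides whose residues Tyr1, Ser2, Thr4 and Ser7 can be phosphorylated during transcription, and it serves as a landing site for factors that process and terminate transcripts. The letter changes in the strain names replace these residues: Y1F puts phenylalanine in the place of tyrosine, and S2A, T4A and S7A put alanine in the place of serine or threonine. Intergenic non-coding RNAs of fission yeast include stable RNAs with a known job, such as the RNA of RNase MRP and telomerase RNA, transcripts that run upstream of a coding gene and can affect it, and meiotic RNAs that vegetative cells destroy. In the last case the protein Mmi1 binds repeats of the motif UNAAAC and passes the RNA to the nuclear exosome, and the RNA of the sme2 locus (meiRNA) in turn holds Mmi1 during meiosis.

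The sequences of 7 RNAs on which the results turn are shown first, from RefSeq, build ASM294v3, as DNA letters on the strand of the RNA, 5′ to 3′. The motif TNAAAC, the DNA form of the motif that Mmi1 binds, was searched on the strand of the RNA alone, and matches are in capitals. For sme2 (II:339347-339446, minus strand) and nam3 (II:4465884-4465983, minus strand) the 100 bases with the most matches are shown. For omt3 (I:4516070-4516169, plus strand), mrp1 (I:1234451-1234550, plus), SPNCRNA.1431 (II:1354306-1354405, plus), SPNCRNA.1527 (II:2552926-2553025, plus) and SPNCRNA.322 (II:674049-674148, plus) the first 100 bases of the RefSeq entry are shown, because the levels given below turn on these RNAs. The RefSeq entry of SPNCRNA.322 begins at 674049, the start of the overlapping SPNCRNA.1380 in the study, and so before the study's own SPNCRNA.322, which begins at 674078.
sme2: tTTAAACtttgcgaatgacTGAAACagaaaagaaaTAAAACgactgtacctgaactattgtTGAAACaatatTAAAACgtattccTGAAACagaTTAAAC
nam3: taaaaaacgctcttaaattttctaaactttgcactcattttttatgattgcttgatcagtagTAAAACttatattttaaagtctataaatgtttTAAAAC
omt3: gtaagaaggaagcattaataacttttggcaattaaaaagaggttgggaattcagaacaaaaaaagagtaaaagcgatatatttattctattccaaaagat
mrp1: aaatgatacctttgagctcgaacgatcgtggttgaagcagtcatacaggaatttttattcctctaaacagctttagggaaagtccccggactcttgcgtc
SPNCRNA.1431: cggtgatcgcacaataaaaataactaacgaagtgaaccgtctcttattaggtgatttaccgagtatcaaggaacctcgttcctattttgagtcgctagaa
SPNCRNA.1527: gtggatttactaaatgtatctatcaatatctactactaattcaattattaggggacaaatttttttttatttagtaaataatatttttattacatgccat
SPNCRNA.322: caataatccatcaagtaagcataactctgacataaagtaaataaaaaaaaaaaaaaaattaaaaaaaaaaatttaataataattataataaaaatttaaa
The window of sme2 held 7 matches, and the 1562 bases that RefSeq gives to sme2 held 9. At least 1 match was present in 224 of the 318 RNAs whose RefSeq coordinates equal the study's (70.4%), with a median of 2.02 matches per kb. Among the 305 of these that are 100 bases or longer, none had more than 4 matches in any 100 bases, and 11 (3.61%) had 3 or more. The window of nam3 held 2 matches, as many as 70 of those 305 RNAs (23.0%) had or exceeded. Over the whole RefSeq entry there were 4 matches in nam3, 2 in omt3, 1 in mrp1, 4 in SPNCRNA.1431, 5 in SPNCRNA.322 and 0 in SPNCRNA.1527. A first window without capitals therefore does not mean an RNA without matches. Per kb these were 2.41 in nam3, 2.43 in SPNCRNA.1431 and 2.29 in SPNCRNA.322. A match is a string of letters and not a measured binding site.

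The 378 RNAs lay on chromosome I (159), II (146) and III (73). They were annotated on the plus strand in 279 cases (73.8%), against 49.6% of the protein-coding features. They were short, with a median width of 558.5 bases, against 1047.5 for non-coding RNAs antisense to one feature, 1542 for those antisense to several and 1891 for protein-coding features. Their GC content ran from 19.1 to 44.9%, with a median of 32.1%. None overlapped a feature on the opposite strand, but 139 overlapped a feature on their own strand, 74 of them a protein-coding feature and 6 a snoRNA. Reads of these 139 may therefore come in part from the overlapping transcript. Wholly within protein-coding features on the same strand lay 27 RNAs, so intergenic is the name of the group and does not hold for every entry. Because 50 RNAs overlapped another RNA of the same group, the 378 entries stand for 351 separate loci. The nearest neighbour on the upstream side pointed away, on the opposite strand, in 192 RNAs whose downstream neighbour lay on the same strand, which is the most common arrangement.

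Most of these RNAs were rare. Their median over all libraries was 1.53 RPKM (reads scaled by feature length and by library size), against 3.82 and 4.60 for the antisense classes and 40.7 for protein-coding features. Only 16 exceeded 40 RPKM. No read was counted in any library for 49 RNAs, which allows up to 3 reads per library as a matter of counting error, and 88 more had too few reads to be tested, which left 241. The RNAs with the highest mean levels were SPNCRNA.507 (204 RPKM), SPNCRNA.112 (146 RPKM), SPNCRNA.808 (111 RPKM), SPNCRNA.532 (104 RPKM), which overlaps nam3, and SPNCRNA.511 (93.0 RPKM). Of these 5, SPNCRNA.532 alone was called different between any of the strains compared. SPNCRNA.507 ranged from 3.01 to 80.1 CPM (reads scaled by library size alone) over the libraries, and its replicates differed widely, as in T4A-S7A (10.6 and 3.01 CPM) and WT (30.9 and 9.37 CPM).

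The libraries held 18677921 to 31254978 counted reads, and replicates differed by more than counting error. Libraries with the same replicate number deviated together from their strain means in each of the 28 pairs of strains, so a fit with the replicate number as a block is given beside each count below. In S2A, whose h+ label sets it apart, 5 genes specific to M cells summed to 48.5 and 39.7 CPM, against 97.4 and 77.0 CPM in WT and 48.9 to 125 CPM in the other mutants. Both measured P-specific genes together stayed between 19.2 and 28.4 CPM in every library. Gene counts cannot show the CTD substitutions themselves.

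The share of a library's reads that fell on the 378 RNAs was below 0.4% everywhere. It was 0.191 and 0.233% in Y1F, 0.282 and 0.247% in S2A, 0.134 and 0.153% in T4A, 0.168 and 0.164% in S7A, 0.256 and 0.210% in Y1F-S7A, 0.233 and 0.376% in S2A-S7A, 0.165 and 0.144% in T4A-S7A, and 0.175 and 0.220% in WT. Both S2A libraries and both S2A-S7A libraries lay above both WT libraries, and both T4A, both S7A and both T4A-S7A libraries lay below them. With 2 libraries a strain, an exact permutation test of such shares gives a two-sided p of 0.333 at the least, so none was made. In bulk RNA, fewer cells with a transcript and less of it per cell cannot be told apart.

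**Figure D1:**
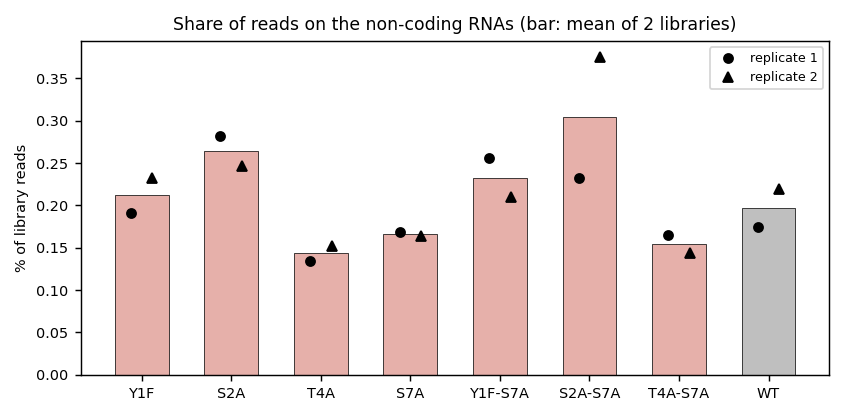
Share of each library's reads, in percent, on the 378 intergenic non-coding RNAs without an antisense partner, by strain. Bars are the means of 2 libraries, circles replicate 1 and triangles replicate 2, and the highest library is S2A-S7A replicate 2 at 0.376% while the lowest is T4A replicate 1 at 0.134%.

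The first question was which RNAs differed between each mutant and WT. A feature was called when edgeR's quasi-likelihood test gave a Benjamini-Hochberg adjusted p under 0.05 over the 6420 features tested, and the share called among all features stands beside the first count of each comparison. All 7 comparisons use the same 2 WT libraries. Each fit was repeated without each of the 16 libraries in turn. A call that ended is given with the libraries of the compared strains whose removal ended it and, in most cases, the highest adjusted p. In S2A, 16 RNAs rose and 6 fell, or 9.13% of the 241, against 11.9% of all features. In S2A-S7A, 33 rose and 3 fell, or 14.9%, against 16.5% of all features. In both strains the share called was no higher than the background, while the split leaned to the higher side: of all features, 8.49% were called higher and 8.04% lower in S2A-S7A, and 7.17% and 4.72% in S2A. No test of this split was made. With the replicate block the counts were 47 (28 higher and 19 lower) in S2A and 68 (55 and 13) in S2A-S7A. Without one library the S2A count was 7 (S2A replicate 1), 14 (S2A replicate 2), 9 (WT replicate 1) or 9 (WT replicate 2). The S2A-S7A count was 30 without S2A-S7A replicate 1, 16 without S2A-S7A replicate 2, 20 without WT replicate 1 and, with WT replicate 2 left out, 14.

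In Y1F, 4 RNAs rose and 2 fell (2.49%, against 2.96% of all features, 1.29% higher and 1.67% lower), and in Y1F-S7A 16 rose and 1 fell (7.05%, against 7.21% of all features, 3.74% higher and 3.47% lower). In S7A, 3 rose and 3 fell (2.49%, against 1.71% of all features, 0.997% higher and 0.717% lower). In T4A-S7A, 0 rose and 10 fell (4.15%, against 2.79% of all features, of which 1.11% were called higher and 1.68% lower). The block gave 27 calls in Y1F (19 higher and 8 lower), 36 in Y1F-S7A (26 and 10), 19 in S7A (7 and 12) and 27 in T4A-S7A (5 and 22). These counts rest on single libraries: the Y1F count was 0 without Y1F replicate 1, Y1F replicate 2 or WT replicate 2, and 3 without WT replicate 1. The S7A count was 0 without S7A replicate 1 or WT replicate 2, 2 without S7A replicate 2 and 3 without WT replicate 1. The T4A-S7A count was 0 without T4A-S7A replicate 2 or WT replicate 2, and 1 without T4A-S7A replicate 1 or WT replicate 1. The Y1F-S7A count was 7, 4, 10 and 2 without Y1F-S7A replicate 1, Y1F-S7A replicate 2, WT replicate 1 and WT replicate 2, in that order.

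In T4A, 0 RNAs were called by edgeR, against 0.0935% of all features (0.0156% higher and 0.0779% lower). An unadjusted p under 0.05 was found for 28 of the 241 RNAs (4 higher and 24 lower), against 492 of the 6420 features. Among the RNAs, DESeq2 called 5 and the block 9 (1 higher and 8 lower). SPNCRNA.1424, on chromosome II (1264952 to 1266264, minus strand) between but2 and rtn1, was one of them, with 1.57 and 3.54 CPM in T4A and 7.77 and 11.7 CPM in WT. Its log2 fold change was -1.95, with an adjusted p of 0.19 in edgeR without the block, 0.00203 with it and 0.00306 in DESeq2. In T4A, 199 of the 241 RNAs lay below WT, and the median log2 fold change was -0.43, against 0.01 over all features. Leaving out any 1 library kept this median between -0.63 and -0.38. In T4A the RNAs antisense to one feature had a median of -0.29 and those antisense to several -0.26, with 28.8% and 24.8% of them above 0, against 17.4% of the RNAs without a partner. Protein-coding features of low level (average log2 CPM under 3, 285 features) had a median of -0.34 in T4A, and whether the low level of the RNAs accounts for theirs was not tested.

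The medians of the other comparisons with WT were smaller or less steady. In T4A-S7A the median log2 fold change of the 241 RNAs was -0.42 (-0.70 to -0.31 with 1 library left out), against -0.18 for the low protein-coding features. In S2A-S7A it was 0.42 (0.12 to 0.59), against 0.46 for the low protein-coding features. It was 0.22 in Y1F-S7A, 0.13 in Y1F, 0.06 in S2A and -0.11 in S7A, and over all features every median lay within 0.01 of 0. For comparison, the RNAs antisense to one feature had in S2A a median of 0.50, and 29.0% of them were called, against 9.13% of the RNAs without a partner and 8.73% of the protein-coding features. In S2A-S7A the class antisense to one feature had 29.6% called and a median of 0.58.

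**Figure D2:**
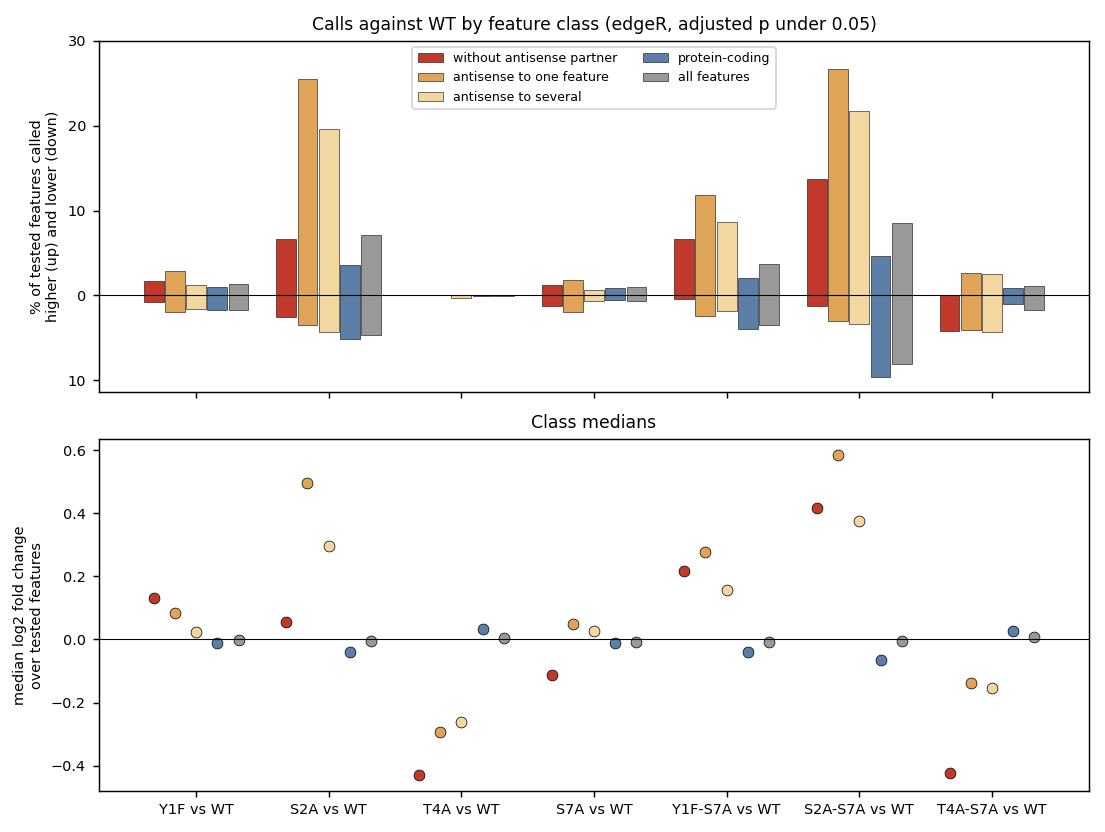
Upper panel, percent of the tested features of each class called higher (up) or lower (down) than WT in each of 7 mutants, and lower panel, the class median of the log2 fold change against WT. In S2A the RNAs antisense to one feature reach 29.0% called, while those without an antisense partner stand at 9.13%, and in T4A the median of the RNAs without a partner lies at -0.43 with 0 called.

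Over all 7 comparisons with WT, 53 of the 241 RNAs were called at least once, 39 of them higher and 19 lower in some mutant, with 5 called in both directions in different mutants. Neither this count nor the spread over mutants given below was made for all features. A joint test for any difference among the 8 strains called 55 RNAs, or 22.8%, against 22.3% of all features. With the replicate block it called 111. Of the 55, 37 were called whichever 1 library was left out, and the count then lay between 45 and 59. The RNAs that were called higher were so in 1 mutant (17), 2 mutants (14), 3 mutants (5) or 4 mutants (3).

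A further question was what Y1F, S2A or T4A adds to S7A. Against S7A, S2A-S7A had 31 RNAs higher and 4 lower, or 14.5%, against 14.1% of all features (7.62% higher and 6.5% lower), and the block gave 58 (51 and 7). The count was 16 without S7A replicate 1, 21 without S7A replicate 2, 33 without S2A-S7A replicate 1 and 20 without S2A-S7A replicate 2. Y1F-S7A had 10 higher and 1 lower (4.56%, against 5.06% of all features, 2.4% higher and 2.66% lower; 37 with the block), and T4A-S7A had 0 higher and 5 lower (2.07%, against 1.29% of all features, 0.312% higher and 0.981% lower; 21 with the block). Without one library the Y1F-S7A count was 3 (S7A replicate 1), 2 (S7A replicate 2), 4 (Y1F-S7A replicate 1) or 8 (Y1F-S7A replicate 2), and the T4A-S7A count was 2, 2, 1 or 0 without S7A replicate 1, S7A replicate 2, T4A-S7A replicate 1 and T4A-S7A replicate 2 in that order. Median log2 fold changes against S7A were 0.42 for S2A-S7A, 0.35 for Y1F-S7A and -0.32 for T4A-S7A. In the same order, the RNAs antisense to one feature had 0.53, 0.26 and -0.17. The low protein-coding features had 0.15, -0.01 and -0.25. These 3 comparisons share the S7A libraries. Between 2 single mutants, S2A against Y1F, 5 RNAs were higher and 4 lower (3.73%, against 6% of all features, 4.72% higher and 1.28% lower; 23 with the block, and 3 to 5 without 1 of the 4 libraries: 4 and 3 without Y1F replicate 1 and 2, and 3 and 5 without S2A replicate 1 and 2).

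Whether S7A had another effect beside Y1F, S2A or T4A than on its own was tested as an interaction. With edgeR 0 RNAs were called for any of the 3 partners, against 0, 0.483 and 0.0156% of all features for Y1F, S2A and T4A. The 0.483% for S2A divide into 0.312% higher and 0.171% lower. At an unadjusted p under 0.05 there were 18 of the 241 RNAs for Y1F, 20 for S2A and 20 for T4A. Over the 6420 features there were 354, 576 and 330. Of the RNAs, DESeq2 called 1, 7 and 2. The block called 2, 13 and 0. All 13 RNAs called for S2A with the block had a positive interaction, among them SPNCRNA.388 (4.70 in the blocked fit), SPNCRNA.1287 (2.11) and SPNCRNA.1340 (1.68). They include both overlapping entries of nam3, SPNCRNA.1696 and SPNCRNA.532. Calls with the block and their directions were not counted over all features, so no background stands beside these 13. This interaction sets S2A-S7A, which is h-, against S2A, which is h+, so mating type changes along with S7A and their effects cannot be told apart, as for SPNCRNA.388, which lies beside mat1-Mc.

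The members of the group with a known role or a gene symbol come next, beginning with the meiotic RNAs. Of 11 RNAs whose symbol begins with meu, sme, omt or nam, names given to transcripts of meiosis or to RNAs associated with Mmi1, 9 were tested. In S2A-S7A 5 of the 9 rose and 0 fell (median log2 fold change 1.43), and in Y1F-S7A 4 rose and 0 fell (median 1.75), where 8.49% and 3.74% of all features were called higher. In S2A 3 rose (7.17% of all features), in S7A 2 rose (0.997% of all features), and in Y1F, T4A and T4A-S7A 0 were called. Some symbols stand for overlapping entries of 1 locus: the 4 calls in Y1F-S7A are those of nam3 and omt3 with 2 entries each, and both calls in S7A are those of omt3.

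The RNA sme2 (SPNCRNA.103, chromosome II, 339346 to 340012, minus strand) is meiRNA, which lies 919 bases from aga1. It had 2.56 and 1.67 CPM in S2A, 1.54 and 3.31 CPM in S2A-S7A, and 0.594 and 0.301 CPM in WT. Both mutants lay above both WT libraries. The log2 fold change was 2.24 ± 0.62 in S2A (SE, adjusted p = 0.0353) and 2.42 ± 0.62 in S2A-S7A (adjusted p = 0.0207). The other strains had 1.11 and 1.60 CPM in Y1F, 0.375 and 0.308 CPM in T4A, 1.06 and 0.539 CPM in S7A, 2.16 and 1.94 CPM in Y1F-S7A, and 0.657 and 0.158 CPM in T4A-S7A, and none of these was called. The S2A call was lost without any 1 of its 4 libraries and the S2A-S7A call without S2A-S7A replicate 2 or either WT library (adjusted p up to 0.221).

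The RNA nam3 (SPNCRNA.1696, chromosome II, 4464625 to 4466286, minus strand), one of the RNAs found with Mmi1, is among the most abundant of the group at 92.2 RPKM. It had 276 and 170 CPM in S2A, 288 and 159 CPM in Y1F-S7A, 333 and 325 CPM in S2A-S7A, and 75.3 and 49.0 CPM in WT. S7A alone had 52.1 and 32.0 CPM, T4A 80.6 and 58.6 CPM and T4A-S7A 131 and 72.9 CPM, all of which overlapped WT, and Y1F, with 187 and 163 CPM, lay above WT without being called. The mutants S2A, Y1F-S7A and S2A-S7A did not overlap WT, and their log2 fold changes were 1.84 ± 0.38 (adjusted p = 0.00773), 1.85 ± 0.38 (adjusted p = 0.0138) and 2.40 ± 0.39 (adjusted p = 0.00174). Against S7A the difference was 2.97 ± 0.40 in S2A-S7A (adjusted p = 0.000684) and 2.41 ± 0.39 in Y1F-S7A (adjusted p = 0.00443). The S2A-S7A calls of SPNCRNA.1696 were kept without any 1 library, while its S2A call was lost without S2A replicate 1 or WT replicate 2 (adjusted p up to 0.0847). Its Y1F-S7A call against WT was lost without Y1F-S7A replicate 1 or WT replicate 2 (up to 0.133), and that against S7A without S7A replicate 2 (0.0645). The overlapping entry SPNCRNA.532 carries the same symbol and was called in the same comparisons. Of its calls, only that of S2A-S7A against S7A was kept without any 1 library. Its S2A-S7A call against WT was lost without WT replicate 2 (0.0552), and its Y1F-S7A call against WT without any 1 of the 4 libraries (up to 0.249). SPBPB2B2.05, the coding neighbour that starts 230 bases away on the opposite strand, also rose, by 1.87 in S2A, 2.28 in S2A-S7A against WT and 3.32 in S2A-S7A against S7A on the log2 scale.

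The RNA omt3 (SPNCRNA.130, chromosome I, 4516070 to 4517070, plus strand) behaved otherwise. It lies between mei2, which encodes the RNA-binding protein that starts meiosis, and omt2. It had 17.2 and 12.3 CPM in S7A, 7.15 and 11.4 CPM in Y1F-S7A, and 1.33 and 0.516 CPM in WT. T4A-S7A had 3 and 4 reads (0.0939 and 0.211 CPM), S2A-S7A had 1.27 and 3.31 CPM, and T4A had 0.545 and 0.205 CPM. S7A was therefore above all other libraries, and adding T4A to S7A went with levels below both WT libraries. Against WT the log2 fold change was 4.0 ± 0.64 in S7A (adjusted p = 0.00948) and 3.33 ± 0.63 in Y1F-S7A (adjusted p = 0.00935). Against S7A it was -6.66 ± 0.79 in T4A-S7A (adjusted p = 0.00466) and -2.70 ± 0.59 in S2A-S7A (adjusted p = 0.00984). In S2A it had 0.102 and 0.181 CPM, against 3.53 and 1.52 CPM in Y1F, a log2 fold change of -4.14 ± 0.79 (adjusted p = 0.00818). The S7A call was lost without S7A replicate 1 or WT replicate 2 (adjusted p up to 0.0917), the Y1F-S7A call without Y1F-S7A replicate 2 or WT replicate 2 (up to 0.0975) and the T4A-S7A call without T4A-S7A replicate 2 (0.0625). The S2A-S7A call was lost without S7A replicate 1 or S2A-S7A replicate 1 (up to 0.0693), and the S2A call without Y1F replicate 1 or either S2A library (up to 0.103). The neighbour mei2, 1054 bases away on the opposite strand, fell as well against S7A, by 3.57 in T4A-S7A and by 1.67 in S2A-S7A on the log2 scale. In S7A against WT, where omt3 rose, mei2 was not called.

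Other RNAs of the meiotic group were called in fewer comparisons. The RNA nam1 (SPNCRNA.1459) had 21.5 and 17.9 CPM in S2A-S7A, against 11.1 and 8.73 CPM in WT, a log2 fold change of 0.99 ± 0.23 (adjusted p = 0.0138). S7A alone had 22.3 and 17.8 CPM without being called. The transcript meu3 had 1.15 and 3.95 CPM in S2A-S7A, against 0.366 and 0.559 CPM in WT (2.44 ± 0.71, adjusted p = 0.0367), and meu11 had 1.69 and 2.37 CPM in S2A-S7A, against 0.514 and 0.539 CPM in S7A (1.93 ± 0.48, adjusted p = 0.0184). In each of these comparisons the 2 strains did not overlap. All 3 calls ended when single libraries were left out (adjusted p up to 0.307): nam1 without S2A-S7A replicate 1 or WT replicate 2, meu3 without S2A-S7A replicate 2 or either WT library, and meu11 without S2A-S7A replicate 2 or either S7A library. Of 24 RNAs named prl, a name for poly(A)-bearing RNAs without a reading frame, 19 were tested, and in most comparisons 0 were called. The exceptions were prl28, which fell in S2A, prl38, which fell in S2A-S7A (0.461 and 0.643 CPM, against 1.87 and 2.62 CPM in WT, -2.03 ± 0.58, adjusted p = 0.0326), and, against S7A, prl38 again (-1.94) and prl52, which rose in S2A-S7A (2.65 and 2.57 CPM, against 0.551 and 0.294 CPM in S7A, 2.58 ± 0.67, adjusted p = 0.0249). The prl28 values were 8.87 and 8.67 CPM in S2A and 13.9 and 17.8 CPM in WT (-0.85 ± 0.24, adjusted p = 0.0383), and this call, like those of prl38 and prl52, was lost without any 1 of the 4 libraries compared (adjusted p up to 0.245).

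Stable RNAs with a known job form the next set. Among them mrp1 (SPNCRNA.82, chromosome I, 1234451 to 1234849, plus strand) is the RNA of RNase MRP, an enzyme that cuts ribosomal RNA precursors, and it overlaps a longer entry, SPNCRNA.727. It had 7.01 and 8.69 CPM in Y1F, 7.23 and 4.65 CPM in S2A, 12.3 and 18.8 CPM in Y1F-S7A, 9.80 and 12.3 CPM in S2A-S7A, and 1.87 and 1.5 CPM in WT. Every library of these 4 mutants lay above both WT libraries, and S7A with 5.76 and 3.53 CPM did so too without being called. T4A (2.21 and 0.974 CPM) overlapped WT and T4A-S7A (1.41 and 0.739 CPM) lay below it, neither being called. The log2 fold change was 3.2 ± 0.46 in Y1F-S7A (adjusted p = 0.00209), 2.71 ± 0.45 in S2A-S7A (adjusted p = 0.00206), 2.21 ± 0.45 in Y1F (adjusted p = 0.0231) and 1.82 ± 0.44 in S2A (adjusted p = 0.0195). The calls in both double mutants were kept without any 1 library. The Y1F call was lost without any 1 of the 4 libraries compared (adjusted p up to 0.187) and the S2A call without S2A replicate 1, WT replicate 1 or WT replicate 2 (up to 0.143). The longer entry SPNCRNA.727 (45.2 RPKM, against 15.5 for SPNCRNA.82) was called against WT in S2A-S7A alone (2.16 ± 0.61, adjusted p = 0.0324). That call was lost without S2A-S7A replicate 2 or either WT library (adjusted p up to 0.293). Poly(A)+ selection was used, so these values describe the polyadenylated form of a stable RNA and not its total amount.

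Of 6 entries that overlap a snoRNA, all tested, 2 rose in Y1F-S7A (SPNCRNA.1436 and SPNCRNA.1394) and 2 in S2A-S7A (SPNCRNA.1436 and SPNCRNA.727), where 3.74% and 8.49% of all features were called higher. SPNCRNA.727 is the longer entry at mrp1, so it is no separate locus from the RNA just described. The 6 entries had median log2 fold changes of 1.63 in Y1F-S7A and 1.51 in S2A-S7A. In Y1F and S2A the medians were 1.31 and 1.08 with 0 called, and in T4A the median was -0.51. SPNCRNA.1436, which carries the symbol snR95, had 15.5 and 11.5 CPM in Y1F-S7A, 12.9 and 12.8 CPM in S2A-S7A, and 5.03 and 1.89 CPM in WT. Both doubles lay above WT, with 1.97 ± 0.45 in Y1F-S7A (adjusted p = 0.0226) and 1.90 ± 0.45 in S2A-S7A (adjusted p = 0.0144). The S2A-S7A call was lost without S2A-S7A replicate 2 or WT replicate 2 (adjusted p = 0.103 at most) and the Y1F-S7A call without either Y1F-S7A library or WT replicate 2 (adjusted p up to 0.152). SPNCRNA.1394 had 27.8 and 13.5 CPM in Y1F-S7A, against 5.21 and 3.09 CPM in S7A (2.31 ± 0.50, adjusted p = 0.0204), a call lost without Y1F-S7A replicate 1 or either S7A library (adjusted p up to 0.194). The reads of the overlapping snoRNA and of the longer RNA cannot be told apart here. The RNA of the signal recognition particle, srp7, had 2.65 and 2.57 CPM in S2A-S7A and 0.594 and 0.645 CPM in WT (2.07 ± 0.62, adjusted p = 0.0396, lost without any 1 of the 4 libraries, up to 0.161), while telomerase RNA, ter1, was called in no comparison and stayed between 8.12 and 14.2 CPM.

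**Figure D3:**
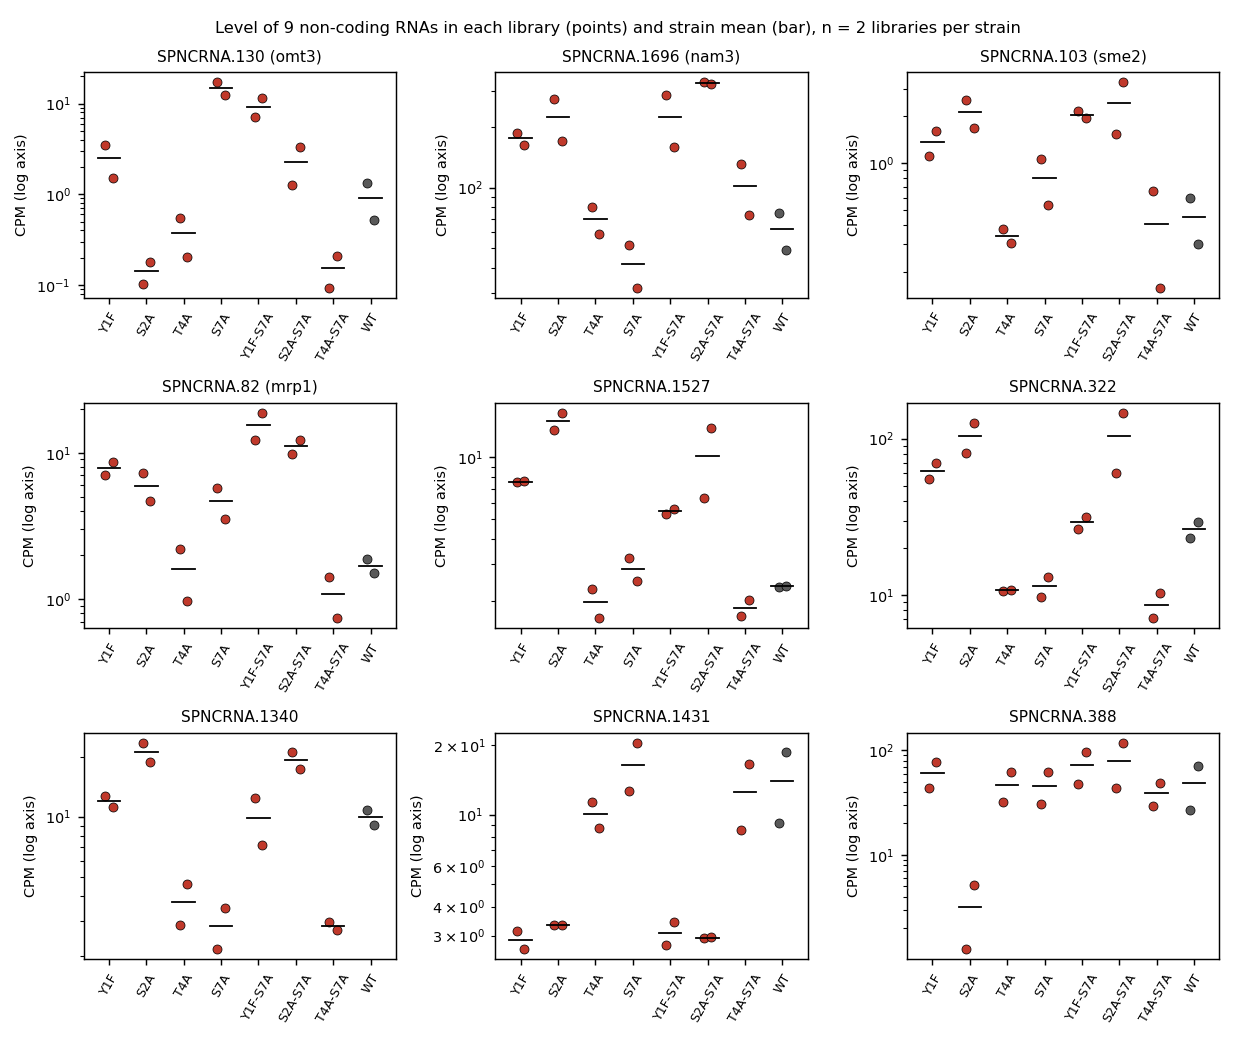
CPM of 9 RNAs in every library, on a log axis, with 1 point per library and a bar at the mean of each strain, mutants in red and WT in grey on the right. In the panel of omt3 S7A stands highest at 17.2 and 12.3 CPM, and in that of SPNCRNA.1431 the 8 libraries of Y1F, S2A, Y1F-S7A and S2A-S7A lie below all others.

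The RNAs without a symbol included one that rose in 3 mutants and one that fell in 4. The first, SPNCRNA.1527 (chromosome II, 2552926 to 2553784, plus strand) lies between pom152, which encodes a nuclear pore protein, and gas2, which encodes a cell wall glucanosyltransferase. It had 13.6 and 16.5 CPM in S2A, 6.34 and 13.9 CPM in S2A-S7A, 7.54 and 7.62 CPM in Y1F, and 2.33 and 2.36 CPM in WT. All of these mutant libraries lay above WT, as did Y1F-S7A with 5.31 and 5.60 CPM, which was not called, while T4A, S7A and T4A-S7A stayed between 1.64 and 3.23 CPM. The log2 fold change was 2.68 ± 0.35 in S2A (adjusted p = 0.000431), 2.10 ± 0.35 in S2A-S7A (adjusted p = 0.00206) and 1.69 ± 0.35 in Y1F (adjusted p = 0.0248). The S2A and S2A-S7A calls were kept without any 1 library, and the Y1F call was lost without any 1 of its 4 (adjusted p up to 0.167).

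SPNCRNA.1431 (chromosome II, 1354306 to 1355953, plus strand) fell in every strain with Y1F or S2A. It starts 5 bases from SPBC27B12.12c on the opposite strand and ends 254 bases before tom40, which encodes a mitochondrial import channel. It had 3.14 and 2.63 CPM in Y1F, 3.34 and 3.34 CPM in S2A, 2.73 and 3.45 CPM in Y1F-S7A, 2.92 and 2.97 CPM in S2A-S7A, and 9.19 and 18.6 CPM in WT. These 8 libraries lay within 2.63 to 3.45 CPM and all below WT, while T4A (11.3 and 8.77 CPM), S7A (12.6 and 20.3 CPM) and T4A-S7A (8.60 and 16.5 CPM) overlapped WT. The log2 fold change was -2.27 ± 0.40 in Y1F (adjusted p = 0.0136), -2.06 ± 0.40 in S2A (adjusted p = 0.00541), -2.17 ± 0.40 in Y1F-S7A (adjusted p = 0.00809) and -2.24 ± 0.40 in S2A-S7A (adjusted p = 0.00324). Against S7A it was -2.41 ± 0.40 in Y1F-S7A (adjusted p = 0.00536) and -2.48 ± 0.40 in S2A-S7A (adjusted p = 0.00216). Both S2A-S7A calls were kept without any 1 library. WT replicate 2 was needed for the other 3 calls against WT (adjusted p up to 0.112), and so were both Y1F libraries, S2A replicate 1 and both Y1F-S7A libraries in their own comparisons. The Y1F-S7A call against S7A was lost without S7A replicate 2 or Y1F-S7A replicate 1 (up to 0.0668). Neither neighbour was called in these comparisons.

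A smaller fall common to Y1F and S2A was found for SPNCRNA.1097 (chromosome III, 39627 to 41424, minus strand). It had 28.6 and 30.7 CPM in Y1F, 28.7 and 39.5 CPM in S2A, and 49.4 and 59.7 CPM in WT. Both mutants lay below WT, by a log2 fold change of -0.88 ± 0.19 in Y1F (adjusted p = 0.0281) and -0.68 ± 0.19 in S2A (adjusted p = 0.0342). Both calls were lost without either WT library, the Y1F call also without either Y1F library and the S2A call without S2A replicate 1 (adjusted p up to 0.282). A larger fall in S2A was that of SPNCRNA.388 (chromosome II, 2115592 to 2117167, plus strand), which lies 564 bases downstream of mat1-Mc, a gene of the mating-type locus. It had 1.26 and 5.15 CPM in S2A, against 26.8 and 71.2 CPM in WT and 29.7 to 117 CPM in the other mutants. The S2A libraries stood apart from the other 14, by -3.97 ± 0.80 against WT (adjusted p = 0.00691) and -4.27 ± 0.81 against Y1F (adjusted p = 0.00801). Both calls were lost without S2A replicate 1, the first also without WT replicate 2 and the second without Y1F replicate 2 (adjusted p up to 0.0824). Since S2A is the h+ strain, effects of h+ and of S2A cannot be told apart for this RNA. SPNCRNA.379 (1.81 and 1.53 CPM in S2A, 3.43 and 3.74 CPM in WT, -1.09 ± 0.31, adjusted p = 0.0371) also fell in S2A, a call lost without any 1 of the 4 libraries (adjusted p up to 0.185).

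Several RNAs that moved lie beside a coding gene on the opposite strand. SPNCRNA.322 (chromosome II, 674078 to 676143, plus strand), which is nearly the same interval as SPNCRNA.1380 and counts as the same locus, starts 235 bases from pfl3, a gene of the flocculin type that makes cells stick together. It had 80.5 and 126 CPM in S2A, 60.4 and 146 CPM in S2A-S7A, 7.13 and 10.3 CPM in T4A-S7A, and 23.3 and 29.5 CPM in WT. S7A, with 9.80 and 13.0 CPM, and T4A, with 10.7 and 10.9 CPM, also lay below both WT libraries without being called. The log2 fold change was 1.97 ± 0.37 in S2A (adjusted p = 0.00437), 1.97 ± 0.37 in S2A-S7A (adjusted p = 0.00403) and -1.61 ± 0.38 in T4A-S7A (adjusted p = 0.044), and against S7A it was 3.18 ± 0.39 in S2A-S7A (adjusted p = 0.000457). The S2A-S7A calls against WT and against S7A were kept without any 1 library. The S2A call was lost without WT replicate 1, and the T4A-S7A call was lost without any 1 of its 4 libraries. With 1 library left out, the log2 fold change lay between 1.62 and 2.26 in S2A and between -1.89 and -1.37 in T4A-S7A. The neighbour pfl3 rose as well, by 1.56 ± 0.42 in S2A (adjusted p = 0.0309) and, against S7A, by 1.83 ± 0.42 in S2A-S7A (adjusted p = 0.0133).

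SPNCRNA.1340 (chromosome II, 332494 to 333584, plus strand) lies 1429 bases from fet4, a metal ion transporter gene on the opposite strand, and overlaps mti2 by 66 bases on its own strand. It had 2.17 and 3.48 CPM in S7A, 2.94 and 2.69 CPM in T4A-S7A, 23.3 and 18.9 CPM in S2A, and 10.7 and 9.07 CPM in WT. S7A and T4A-S7A lay below WT and S2A above it, with log2 fold changes of -1.82 ± 0.33 (adjusted p = 0.0184), -1.81 ± 0.33 (adjusted p = 0.0156) and 1.09 ± 0.31 (adjusted p = 0.0414). S2A-S7A had 21.1 and 17.3 CPM, which is 2.78 ± 0.34 above S7A on the log2 scale (adjusted p = 0.000456). Here fet4 went the other way, with -1.09 in S2A against WT and -1.11 in S2A-S7A against S7A. The calls against WT were lost without any 1 of their 4 libraries (adjusted p up to 0.225), and the call of S2A-S7A against S7A was kept without any 1 library.

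SPNCRNA.1343 (chromosome II, 354031 to 355573, plus strand), upstream of tgp1, a gene for a glycerophosphodiester transporter on the opposite strand, had 17.0 and 13.4 CPM in S7A and 35.5 and 31.5 CPM in WT. The groups did not overlap, and the log2 fold change was -1.14 ± 0.19 (adjusted p = 0.013). In the same strain tgp1, 1661 bases away, rose by 2.09 ± 0.32 (adjusted p = 0.00799), while in T4A-S7A tgp1 was not called against WT. T4A-S7A had 17.6 and 15.9 CPM of SPNCRNA.1343, a log2 fold change of -1.0 ± 0.19 against WT (adjusted p = 0.0189), while S2A-S7A had 32.5 and 38.0 CPM, or 1.21 ± 0.19 above S7A (adjusted p = 0.00186). The calls against WT were lost without any 1 of their 4 libraries (adjusted p up to 0.165), and the call against S7A was kept without any 1 library. The third RNA that fell in S7A, SPNCRNA.586, lies within ptc2 and had 35.2 and 38.9 CPM in S7A and 56.8 and 84.4 CPM in WT (-0.93 ± 0.20, adjusted p = 0.0393, lost without either S7A library or WT replicate 2, adjusted p up to 0.326).

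SPNCRNA.472 (chromosome III, 715986 to 717312, plus strand) starts 550 bases from bfr1, which encodes a drug exporter, on the opposite strand. It had 6.55 and 3.66 CPM in Y1F-S7A, 6.27 and 3.11 CPM in S2A-S7A, and 0.868 and 0.602 CPM in WT. Both double mutants lay above WT, by 2.80 ± 0.66 (adjusted p = 0.0271) and 2.67 ± 0.66 (adjusted p = 0.0179), and bfr1 rose by 0.88 and 0.99 in the same 2 comparisons. The Y1F-S7A call was lost without any 1 of its 4 libraries and the S2A-S7A call without S2A-S7A replicate 1 or either WT library (adjusted p up to 0.182). SPNCRNA.1287 (chromosome III, 2319056 to 2320085, minus strand), which overlaps taf13 by 64 bases and lies 234 bases from the retrotransposon Tf2-13, had 10.7 and 26.8 CPM in S2A-S7A and 3.84 and 3.83 CPM in WT. Both S2A-S7A libraries lay above WT, by 2.29 ± 0.37 (adjusted p = 0.00189), and the call was kept without any 1 library. SPNCRNA.681 was one of the 3 that fell in S2A-S7A (13.1 and 9.64 CPM, against 22.0 and 17.6 CPM in WT, -0.80 ± 0.23, adjusted p = 0.0361), and the call was lost without S2A-S7A replicate 2 or either WT library (adjusted p up to 0.195).

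In T4A-S7A all 10 calls were falls. SPNCRNA.1424, the RNA between but2 and rtn1, had 1.60 and 1.32 CPM in T4A-S7A and 7.77 and 11.7 CPM in WT, a log2 fold change of -2.72 ± 0.46 (adjusted p = 0.00951). SPNCRNA.1432 (chromosome II, 1363471 to 1364267, minus strand), which overlaps the histone H4 gene hhf2 by 79 bases, had 1.94 and 1.00 CPM in T4A-S7A and 6.44 and 6.92 CPM in WT (-2.15 ± 0.38, adjusted p = 0.0124). SPNCRNA.1442, which starts 41 bases from isp4, an oligopeptide transporter gene, had 2.47 and 2.16 CPM in T4A-S7A and 7.54 and 7.01 CPM in WT (-1.64 ± 0.34, adjusted p = 0.026). In each case both T4A-S7A libraries lay below both WT libraries. S7A alone had 3.16 and 3.14 CPM of SPNCRNA.1424 and 5.91 and 6.61 CPM of SPNCRNA.1432, so that SPNCRNA.1432 was also lower in T4A-S7A than in S7A (-2.05 ± 0.38, adjusted p = 0.0251, lost without any 1 of its 4 libraries). None of these calls was kept when single libraries were left out: T4A-S7A replicate 2 and WT replicate 2 were needed for each of the 3, T4A-S7A replicate 1 for SPNCRNA.1424 and SPNCRNA.1442, and WT replicate 1 for SPNCRNA.1432 and SPNCRNA.1442 (adjusted p up to 0.206).

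Between S2A and Y1F, the RNAs that were higher in S2A included SPNCRNA.1306 (chromosome II, 78958 to 80201, minus strand), near the left end of the chromosome. It had 48.6 and 39.0 CPM in S2A and 19.8 and 14.4 CPM in Y1F, with 33.0 and 24.3 CPM in WT between them. The log2 fold change was 1.36 ± 0.24 (adjusted p = 0.00513), lost without Y1F replicate 2 (adjusted p = 0.0708). SPNCRNA.1243 had 16.3 and 16.8 CPM in S2A and 6.96 and 7.40 CPM in Y1F (1.21 ± 0.25, adjusted p = 0.0129), lost without any 1 of the 4 libraries (adjusted p up to 0.1). Of the 37 RNAs within 100 kb of a chromosome end, 15 were tested, and the counts there were 1 lower in Y1F (1.67% of all features), 4 higher and 1 lower in S2A (7.17% and 4.72%), 2 higher in Y1F-S7A (3.74%), 7 higher in S2A-S7A (8.49%) and 2 lower in T4A-S7A (1.68%), with 0 in T4A and S7A. Their median log2 fold changes were -0.37 in Y1F, 0.57 in S2A, 0.92 in S2A-S7A, -0.56 in T4A and -1.07 in T4A-S7A. Overlapping entries of a locus count more than once here. Both calls in Y1F-S7A are those of nam3 (SPNCRNA.1696 and SPNCRNA.532), and both in T4A-S7A are SPNCRNA.1303 and the overlapping SPNCRNA.289. The 4 entries that rose in S2A are these same pairs, which are also among the 7 in S2A-S7A.

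**Figure D4:**
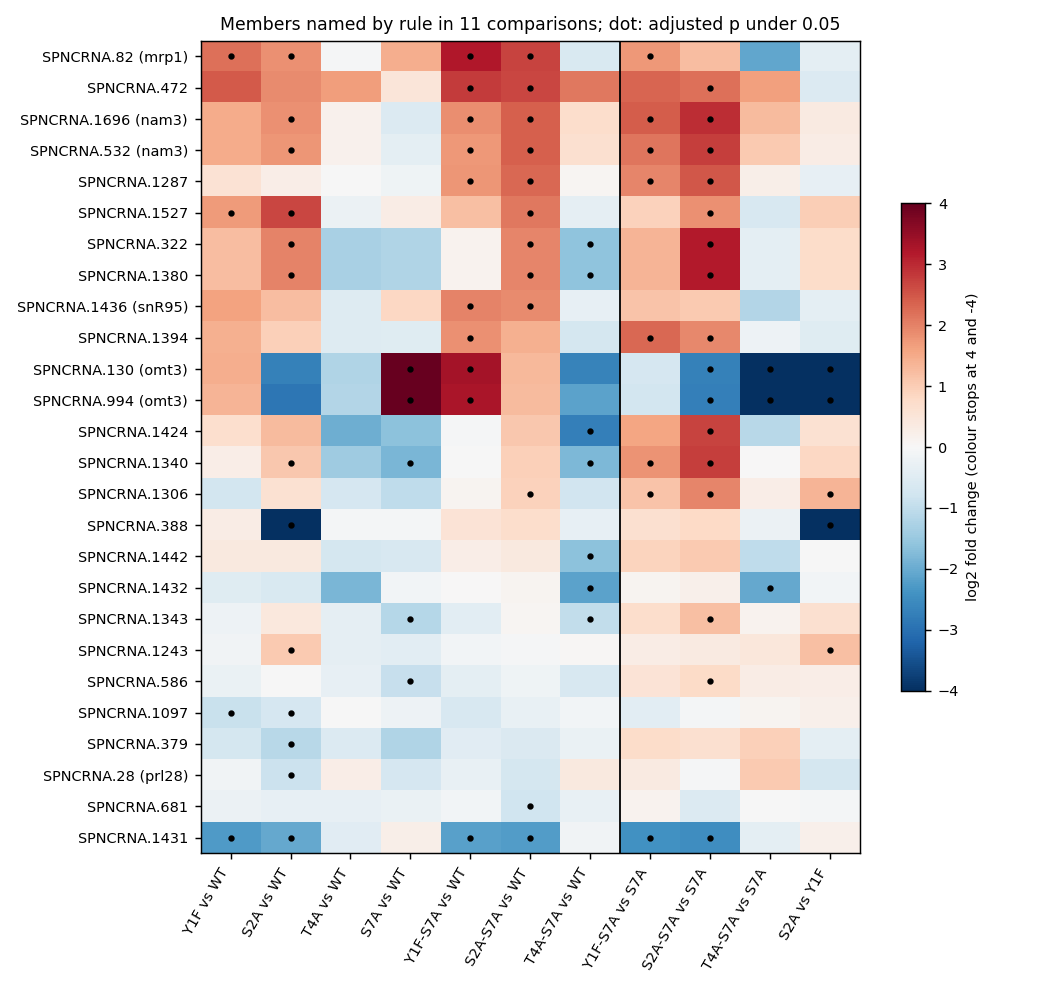
Log2 fold changes of 26 RNAs in 11 comparisons, with the first-named strain over the second, red for higher and blue for lower, the colours ending at 4 in either direction. Dots mark an adjusted p under 0.05, as for omt3 at -6.66 in T4A-S7A against S7A and SPNCRNA.1431 at -2.27 in Y1F against WT.

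The following RNAs fell outside the rule by which the others were picked and were chosen after their values were seen. SPNCRNA.102, which lies within msi2 (chromosome II, 227847 to 228309), was almost silent in WT, with 3 and 0 reads, and in S7A, with 2 and 2 reads. It had 31 and 22 reads in Y1F, 54 and 27 in S2A, 57 and 21 in Y1F-S7A and 57 and 24 in S2A-S7A, and it was called higher than WT in all 4. The calls in S2A and S2A-S7A were kept without any 1 library, those in Y1F and Y1F-S7A were not (lost without Y1F replicate 1 or 2, Y1F-S7A replicate 1 or WT replicate 2, adjusted p up to 0.188). SPNCRNA.1120 (chromosome III, 230600 to 231934), between the hexose transporter genes ght8 and ght1, had 1.93 and 1.96 CPM in Y1F, 1.91 and 1.22 CPM in S7A, 3.46 and 2.96 CPM in Y1F-S7A, 0.999 and 1.93 CPM in S2A-S7A, and 0.183 and 0.344 CPM in WT. It was called higher in these 4 strains, with log2 fold changes of 2.85, 2.55, 3.58 and 2.43, while S2A, with 0.102 and 0.316 CPM, did not lie above WT. Of these calls the one in Y1F-S7A was kept without any 1 library, those in Y1F and S7A were lost without any 1 of their 4 libraries, and that in S2A-S7A without S2A-S7A replicate 2 or WT replicate 1 (adjusted p up to 0.317). SPNCRNA.810 had 18.5 and 18.4 CPM in S2A and 6.67 and 4.77 CPM in WT (1.69 ± 0.27, adjusted p = 0.00159), a call kept without any 1 library. SPNCRNA.1303 (chromosome II, 63602 to 64286) had 3.89 and 4.92 CPM in S2A, 3.92 and 4.74 CPM in S2A-S7A, 0.219 and 0.0528 CPM in T4A-S7A and 0.685 and 1.25 CPM in WT, and was called higher in both strains with S2A and lower in T4A-S7A. The T4A-S7A call was lost without any 1 of the 4 libraries (adjusted p up to 0.257), the S2A call without S2A replicate 2 or WT replicate 1 (0.0927) and the S2A-S7A call without WT replicate 1 (0.0792).

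The relation between an RNA and its coding neighbours was described for each side. Across the 180 tested pairs whose upstream neighbour lies on the opposite strand, the log2 fold changes of RNA and neighbour had Pearson's r of 0.52 for S2A-S7A against S7A, 0.38 for S2A against WT and 0.34 for S2A-S7A against WT. Across the 125 pairs whose downstream neighbour lies on the same strand, r was 0.04, 0.10 and 0.01 in the same comparisons. Across the 64 pairs with a downstream neighbour on the opposite strand it was 0.57, 0.46 and 0.06, and across the 36 pairs with an upstream neighbour on the same strand -0.23, -0.20 and -0.15. In S2A-S7A against S7A and S2A against WT the higher values thus went with neighbours on the opposite strand on either side. In T4A-S7A against S7A, r was 0.47 for upstream opposite-strand, 0.32 for downstream same-strand, 0.04 for downstream opposite-strand and 0.11 for upstream same-strand neighbours. These are descriptions over pairs that share their libraries, and pairs are not replicates. Overlapping entries of a locus, such as SPNCRNA.322 and SPNCRNA.1380 beside pfl3, enter as separate pairs. Such loci therefore weigh more than once in r and in the counts that follow. In S2A-S7A against S7A the 35 called RNAs stand for 30 loci. For S2A-S7A against S7A, 14 of the 25 called RNAs with such an upstream neighbour had a called neighbour, 13 of them in the same direction, where 17.2% of all such neighbours were called. The count was 1 of 20 for downstream neighbours on the same strand (8.8% of such neighbours called), 4 of 11 for downstream neighbours on the opposite strand (10.9%), all 4 in the same direction, and 1 of 4 for upstream neighbours on the same strand (16.7%). For upstream neighbours on the opposite strand it was 8 of 17 in S2A (10% of such neighbours called) and 8 of 26 in S2A-S7A against WT (13.3%).

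**Figure D5:**
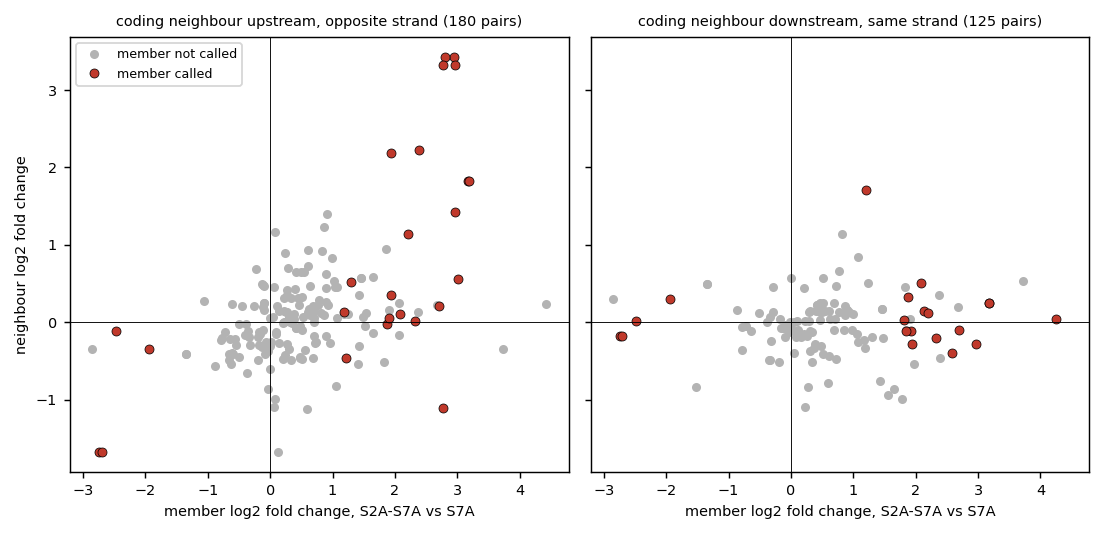
Log2 fold change of each RNA (horizontal) and of its coding neighbour (vertical) in S2A-S7A over S7A, for 180 upstream neighbours on the opposite strand (left) and 125 downstream neighbours on the same strand (right), with called RNAs in red. The left panel has r of 0.52 and the right panel r of 0.04.

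The motif TNAAAC was set beside the calls. Only tested RNAs whose RefSeq coordinates equal the study's were counted, which leaves out sme2 and SPNCRNA.322, both called higher in S2A and S2A-S7A. Among those counted, 9 of the 10 called higher in S2A held at least 1 match (90%), against 147 of the other 192 (76.6%). In Y1F-S7A it was 11 of 13 (84.6%), against 145 of 189 (76.7%), and in S2A-S7A 18 of 24 (75%), against 138 of 178 (77.5%). The shares of called and other RNAs were close in S2A-S7A, and no test was made.

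Genes whose products act on such RNAs were looked at as lists. Of 22 tested genes of nuclear RNA surveillance and transcription termination, 1 rose and 4 fell in S2A-S7A (8.49% and 8.04% of all features), 1 rose and 1 fell in Y1F-S7A (3.74% and 3.47%), 1 rose in Y1F (1.29%) and 1 in S2A (7.17%), and 0 were called in T4A, S7A or T4A-S7A. The gene that rose was red1 each time, which encodes a zinc-finger protein of the complex that hands meiotic RNAs to the exosome. It had 130.3 and 144.0 CPM in S2A-S7A and 97.4 and 97.9 CPM in WT, and its log2 fold change was 0.47 in Y1F, 0.42 in S2A, 0.44 in Y1F-S7A and 0.49 in S2A-S7A. The falls in S2A-S7A were those of rhn1 (-0.88) and ctf1 (-0.49), which act in termination, rmn1 (-0.54), and the exosome helicase gene mtr4 (-0.45). In Y1F-S7A the helicase gene mtl1 fell by 0.43. Of 12 tested genes of RNA interference and heterochromatin, stc1 (-0.90), arb2 (-0.84), chp1 (-0.55) and rik1 (-0.50) fell in S2A-S7A and clr4, the histone H3 lysine methyltransferase gene, fell by 0.61 in Y1F-S7A, with 0 called in the other mutants. These are 4 of 12 lower in S2A-S7A, where 8.04% of all features were lower, and 1 of 12 in Y1F-S7A, where 3.47% were.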

How the data were processed

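Poly(A)+ RNA was sequenced as stranded paired-end libraries, pooled 8 per lane on an Illumina HiSeq 2000 instrument, per the labels' protocols. The authors deposited 1 table of 7022 annotated features. It holds read counts per feature and library, which were the input of every test here. It also holds log2 RPKM values and log2 fold changes with p-values of the authors' own comparisons, and a width, per the file headers. The aligner named in the submitters' processing notes is Bowtie 0.12.7. The genome build and the counting tool are not given in the sources used here, so coordinates are those of the deposited table, and sequences were taken from RefSeq (ASM294v3) where start and end were identical, in 318 of the 378 RNAs, or by name for sme2 and SPNCRNA.322, whose RefSeq intervals differ from the study's. Of the 378, 326 matched RefSeq by locus tag and 13 by synonym, and 39 did not match.

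Tests were run with edgeR 4.0.16 (limma 3.58.1, R 4.3.3). Features with low counts were removed with filterByExpr by strain, which left 6420, and libraries were scaled with TMM factors of 0.911 to 1.154. CPM values use the TMM-scaled library size. One quasi-likelihood model had a coefficient per strain over all 16 libraries (8 residual degrees of freedom, common dispersion 0.0374). Tests were two-sided with Benjamini-Hochberg adjustment over all features tested, at 0.05. P-values measure the spread between 2 biological replicates per strain. Between replicates of a strain, chi-square divided by its degrees of freedom was 90.3 to 163.8. Deviations from the strain means correlated between same-numbered libraries in each of 28 pairs of strains (r of 0.24 to 0.67). A fit with the replicate number as a block was therefore run as an alternative, although the labels do not say what these libraries share. The main fit had no term for the replicate number, and calls, adjusted p and SE are from it unless another fit is named. The blocked fit changed no call of the 55 named RNA and comparison pairs.

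Named were, for each mutant against WT, the 5 highest and 5 lowest called RNAs whose average log2 CPM was 1 or more and with both libraries beyond both of WT, the 3 highest and 3 lowest of other comparisons, the 5 RNAs with the highest RPKM, RNAs with a symbol, and nearest neighbours. The RNAs and gene lists were chosen with earlier results of these data known. On simulated counts for S2A-S7A against WT (6362 features), the test recovered 2.08% of 1.5-fold, 48% of 2-fold and 100% of 4-fold changes, with 7 false calls. The simulation gave every feature the common dispersion, had no effect of replicate number, and drew the changed features from all features tested. The tested RNAs had a median average log2 CPM of 1.36, against 6.42 for protein-coding features. These rates therefore do not give the recovery or the false calls among the RNAs. DESeq2 1.42.0, other scaling, no filter, the block, the compared strains alone and leaving out libraries were alternatives. The ± values are standard errors derived from the log2 fold change and the F statistic of the quasi-likelihood test, so they include the estimated spread. The limit of 3 reads covers counting error only.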

Additional observations from a re-analysis of the deposited data

How the results depend on the processing

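The 55 named pairs of an RNA and a comparison kept their direction in every alternative run, and all 55 remained called with RLE scaling, without the filter on low counts, with the replicate block and with DESeq2. With only the strains compared in the fit, 20 of them lost their call, and 29 did so without WT replicate 2. Scaling moved the median of all features by at most 0.02 (log2). Counts of RNAs called depended more on the setting; the cause was not tested. With the replicate block they were 27 in Y1F, 47 in S2A, 9 in T4A, 19 in S7A, 36 in Y1F-S7A, 68 in S2A-S7A, 27 in T4A-S7A against WT, 37, 58 and 21 in Y1F-S7A, S2A-S7A and T4A-S7A against S7A, 23 in S2A against Y1F, 2, 13 and 0 for the interactions and 111 for any strain. With DESeq2 they were 18 in Y1F, 37 in S2A, 5 in T4A, 17 in S7A and 16 in T4A-S7A against WT, 27 in Y1F-S7A and 13 in T4A-S7A against S7A, 16 in S2A against Y1F, 1, 7 and 2 for the interactions and 92 for any strain. With only the strains compared in the fit they were 0 in Y1F, 0 in S7A, 1 in T4A-S7A and 10 in S2A-S7A against WT and 2 in T4A-S7A against S7A. Leaving out the RNAs that overlap a feature on their strand gave 11 in S2A, 2 in S7A, 8 in Y1F-S7A, 4 in T4A-S7A, 17 in S2A-S7A against WT, 4, 13 and 2 in Y1F-S7A, S2A-S7A and T4A-S7A against S7A, 5 in S2A against Y1F and 27 for any strain. Leaving out each of the 16 libraries gave 0 to 9 in Y1F, 7 to 25 in S2A, 0 to 0 in T4A, 0 to 8 in S7A, 2 to 19 in Y1F-S7A, 0 to 10 in T4A-S7A, 14 to 38 in S2A-S7A against WT. Against S7A it gave 2 to 16 in Y1F-S7A, 0 to 6 in T4A-S7A and 16 to 36 in S2A-S7A. It gave 3 to 10 in S2A against Y1F, 0 to 0, 0 to 2 and 0 to 0 for the interactions and 45 to 59 for any strain. Low levels limit the precision: 137 of the 378 RNAs had too few reads to be tested.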

Other observations

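Among the RNAs that carry a symbol, 6 had 0 reads in every library, nam5, nam6, prl11, prl12, IRC1-L and IRC1-R, which allows up to 3 reads per library. The RNAs nam5 and nam6 held 9 matches to TNAAAC each, or 8.32 and 8.27 per kb, against a median of 2.02 per kb over the RNAs with sequence. A pattern that follows the replicate number and not the strain was seen for prl32, chosen after its values were seen: it ranged from 3.14 to 51.0 CPM in the libraries numbered 1 and from 32.5 to 89.8 CPM in those numbered 2, and was higher in replicate 2 in 8 of 8 strains.

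In the authors' deposited table, the RNAs without an antisense partner past an adjusted p of 0.05 numbered 7 in Y1F, 14 in S2A, 2 in T4A, 7 in S7A, 8 in Y1F-S7A, 8 in T4A-S7A and 14 in S2A-S7A against WT. Over all features with a p-value there, 110 of 6658 passed in Y1F, 634 of 6699 in S2A and 15 of 6658 in T4A. For S7A it was 102 of 6671, for Y1F-S7A 192 of 6690, for T4A-S7A 113 of 6666 and for S2A-S7A 521 of 6718. Of the RNAs that passed, 2 of 7 were lower in Y1F, 5 of 14 in S2A and 2 of 2 in T4A. The lower ones were 5 of 7 in S7A, 0 of 8 in Y1F-S7A, 7 of 8 in T4A-S7A and 4 of 14 in S2A-S7A.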
